A study of Mus musculus with 72 samples.

Results

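The 10 genes described here encode writers, erasers and readers of the RNA mark m6A and were picked by symbol, without a measured value, from the 51826 genes in the deposited counts. They are the writers Mettl3, Mettl14 and Wtap, the erasers Alkbh5 and Fto, and the readers Ythdf1, Ythdf2, Ythdf3, Ythdc1 and Ythdc2. RNA came from the E14TG2a line of mouse embryonic stem cells, unmodified and grown with serum in 2i + LIF medium, in which kinase inhibitors and leukemia inhibitory factor hold cells in the pluripotent state. All cultures analysed carried the uridine analog 4sU for 15, 20, 30, 40, 60 or 120 min, and all were harvested with cycloheximide, which stops ribosomes. Detergents split each culture into cytosol, membrane fraction and nucleus, and part of it was kept as whole cells, so that the 72 libraries hold 18 of each kind. Labeling lasted 15, 20 and 30 min in replicates 1 and 2. It lasted 20, 40, 60 and 120 min in replicates 3 and 4, while replicates 5 and 6 were labeled for 60 and 120 min only. The labels give 500 µM 4sU up to 40 min and 100 µM for the longer times. The study's methods state the higher dose for part of the longer labelings. Alkylated 4sU gives T-to-C (T2C) conversions in the reads, which mark RNA made during labeling. The estimated conversion rate at 60 min was 5.83% to 8.29% in replicates 3 and 4 and 2.38% to 3.99% in replicates 5 and 6. Replicate pair and dose cannot be told apart at 60 min. The 8 libraries of 120 min in replicates 3 and 4 were set aside on the inference, from those methods and the conversion rates, that they had the higher dose, since the study left out long labelings at that dose. This left 64 libraries from 16 cultures of 6 replicates.

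m6A is a methyl group on adenosines inside mRNA, put there in the nucleus while the RNA is being made. Mettl3 encodes the catalytic subunit of the methyltransferase, Mettl14 its RNA-binding partner, and Wtap the adaptor that holds both in nuclear speckles. Alkbh5 and Fto encode demethylases. The readers bind the mark through a YTH domain. Ythdf1, Ythdf2 and Ythdf3 encode closely related cytoplasmic readers, of which Ythdf2 is known for bringing methylated mRNA to decay. Ythdc1 encodes the nuclear reader, with roles in splicing and export, and Ythdc2 a helicase with a role in germ cells. In embryonic stem cells m6A is known for limiting the lifetime of pluripotency transcripts. The values below are levels and labeling of the mRNAs of these genes, not of their proteins or of the mark.

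The 3 Ythdf transcripts come from related genes, and reads could be shared between them. The longest runs of bases that transcripts of each pair have in common are shown for this reason, taken from the GENCODE transcripts of build GRCm38, 5′ to 3′ in the sense of the RNA, with capitals at each T, where a conversion can be read.
Ythdf1 and Ythdf2: aTTgcTagcaagccTgcaaaac
Ythdf1 and Ythdf3: aagagcTaTTcTgagga
Ythdf2 and Ythdf3: aTaTTggaacTTgggaT
The first run has 22 bases and lies at chr2:180911610-180911631 (minus strand) in Ythdf1 and at chr4:132205103-132205124 (minus strand) in Ythdf2. The second has 17 bases and lies at chr2:180911141-180911157 (minus strand) in Ythdf1 and at chr3:16204954-16204970 (plus strand) in Ythdf3. The third has 17 bases and lies at chr4:132205011-132205027 (minus strand) in Ythdf2 and at chr3:16204514-16204530 (plus strand) in Ythdf3. All of them are in coding sequence and none crosses a splice junction. No run is as long as a read of 75 bases, and the runs hold 4, 4 and 6 T. Only exact matches count as a run, while the authors' alignment allowed mismatches. Whether reads were shared between the 3 genes was therefore not tested.

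The other genes are spread over the genome. Mettl3 spans chr14:52294841-52305128 (minus strand), Mettl14 chr3:123368297-123386108 (minus strand) and Wtap chr17:12966796-12994169 (minus strand). Alkbh5 spans chr11:60536381-60558512 and Fto chr8:91313525-91668439, both on the plus strand. Fto is by far the longest, with 355 kb, while the other members span 10.3 kb to 62.0 kb. Ythdc1 spans chr5:86804221-86836659 and Ythdc2 chr18:44827746-44889724, both on the plus strand. The 3′ end of Mettl3 overlaps Tox4, a gene on the opposite strand that reaches position 52296401. Since the sources used here do not state whether counting used strand, reads in that stretch cannot be told apart. Within Fto the annotation places 8 short or antisense transcripts, with mean counts of 0 to 3.27 against 1054 for Fto.

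Library depth was 13185351 to 52975732 counted reads. The pluripotency genes Pou5f1, Sox2, Nanog, Zfp42 and Esrrb were at 113 TPM or more in whole cells in every library, where a level is a count divided by exon length, given here as TPM (scaled so that every library has the same sum over genes). The lineage genes Gata6, Sox17, T, Pax6 and Sox1 stayed at 4.33 TPM or lower there. The nuclear transcript Malat1 had a median level of 396 in nuclear libraries, against 44.2 in cytosolic ones. Hspa5, whose protein is made at the endoplasmic reticulum, had median levels of 1044 in the membrane fraction, 443 in the nucleus and 43.2 in the cytosol. Membrane-bound RNA in the nuclear fraction and nuclear RNA of Hspa5 cannot be told apart here, and their part in the values of the members was not tested. In such bulk samples, fewer cells with a transcript and less RNA per cell cannot be told apart. The whole-cell libraries labeled 60 and 120 min of replicate 6 go against their labels. Their median share of new RNA over all genes was 0.374 and 0.175, against 0.220 and 0.388 in replicate 5. They were used as labeled, and whole-cell labeling values are also given without replicate 6. Replicates were passaged apart from each other per the study's methods, and each time of a replicate entered the edgeR and limma tests as a separate culture. The main tests between fractions had no term for culture, so that fractions of the same culture entered them as separate libraries.

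All 10 genes were expressed in every fraction. Among the readers, Ythdf1 was the most abundant member in whole cells, with a level of 101 ± 31.3 TPM (mean ± SD, n = 16). Ythdf3 followed with 68.4 ± 21.9 and Ythdf2 with 60.1 ± 21.2. Ythdc1 reached 17.3 ± 3.87, and Ythdc2, with 7.69 ± 2.81, was the lowest of all members. Among the writers Wtap stood at 54.6 ± 10.7, Mettl3 at 22.5 ± 5.73 and Mettl14 at 13.4 ± 3.50. The adaptor was thus the most abundant writer transcript. Of the erasers, Alkbh5 had a level of 32.5 ± 8.80 and Fto of 9.57 ± 4.27. Among the 14494 genes at 1 TPM or more in whole cells, these levels run from percentile 37.6 for Ythdc2 to percentile 90.5 for Ythdf1.

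The order of whole-cell levels was tested between neighbours, over the means of the 6 replicates with an exact two-sided sign-flip permutation test. The smallest p this design allows is 0.03125, and none of the 9 pairs had an adjusted p under 0.05. Wtap was above Alkbh5 in 16 of 16 libraries, by 0.79 on the log2 scale (exact permutation p = 0.03125, adjusted p = 0.0703). Alkbh5 was above Mettl3 in 16 of 16 libraries, by 0.52 (exact permutation p = 0.03125, adjusted p = 0.0703). Ythdf3 was above Ythdf2 in 9 of 16 libraries (exact permutation p = 0.5), Ythdf2 above Wtap in 10 of 16 (exact permutation p = 0.65625) and Fto above Ythdc2 in 9 of 16 (exact permutation p = 0.46875). These 3 pairs differed by less than the spread between replicates.

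**Figure D1:**
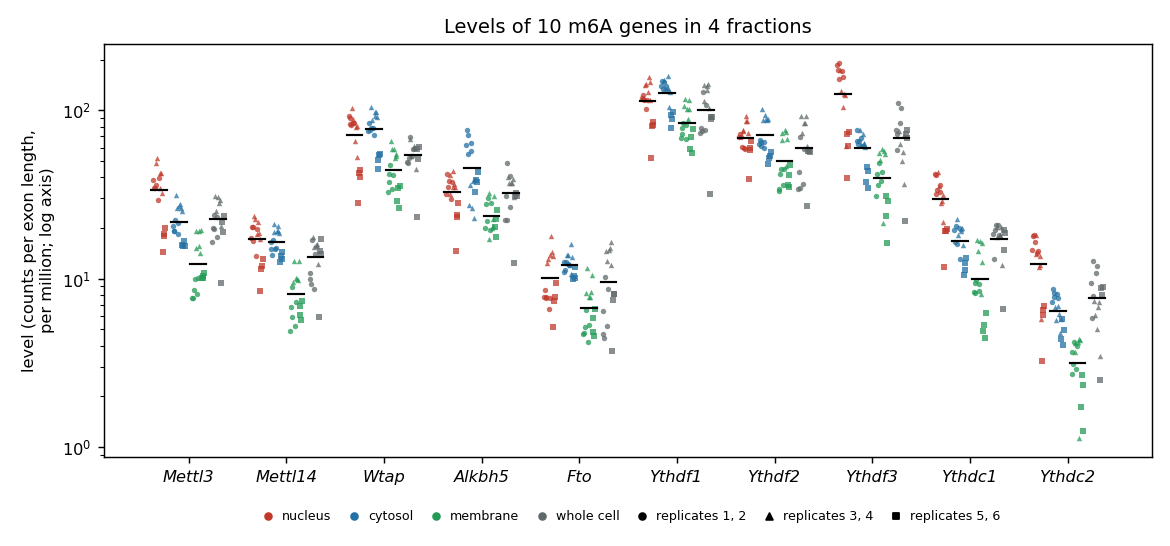
Level of each gene (count per exon length, TPM; log axis) in every library used, by fraction, with symbols for the replicate pairs and a bar at the mean of 16 libraries. Ythdf3 in the nucleus ranges from 39.7 to 192, with replicates 5 and 6 lowest, and membrane means lie below the cytosol means for every gene.

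Levels moved between replicate pairs as much as between fractions for several members. Nuclear Ythdf3 had a lowest, median and highest level of 39.7, 127 and 192 over the 16 libraries. Its mean was 172 ± 14.8 in replicates 1 and 2 (n = 6), 119.6 ± 36.6 in replicates 3 and 4 (n = 6) and 61.9 ± 15.8 in replicates 5 and 6 (n = 4). The first and the last pair did not overlap. Cytosolic Alkbh5 had a lowest, median and highest level of 22.8, 38.9 and 76.2. Its mean was 64.5 ± 8.24 in replicates 1 and 2 (n = 6), against 31.6 ± 6.95 in replicates 3 and 4 (n = 6) and 38.0 ± 4.18 in replicates 5 and 6 (n = 4). The lowest nuclear value of every member came from the 60 min library of replicate 5, and so did the lowest whole-cell value of every member. Nuclear Fto went the other way from Ythdf3, with 14.3 ± 1.961 in replicates 3 and 4 (n = 6) against 7.70 ± 0.635 in replicates 1 and 2 (n = 6).

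The comparison of nucleus and cytosol asks where each transcript is held. Ythdf3, Ythdc2 and Ythdc1 were higher in the nucleus and Alkbh5 was lower, by edgeR's quasi-likelihood test with Benjamini-Hochberg adjustment over 16093 genes and a minimum log2 difference of 0.5. The 3 members called higher stand against 42.5% of all genes, and the 1 called lower against 21.2%. All differences here are on the TMM scale, on which the median of all genes was 0.29. Relative to that median, 4 of the 10 members were above and 6 below, and the median over the members was -0.22. With the fractions scaled to the same median, 1 member (Ythdf3) was called higher and 5 lower, and of the calls over all genes 52.9% were higher in place of 66.7%. With all 72 libraries 0 members were called higher by edgeR and 6 lower, against 35.4% and 31.7% of all genes. The position among all genes is therefore given with each value.

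Ythdf3 had levels of 172 and 61.9 TPM in the nucleus in the first and last replicate pair, against 66.7 ± 5.22 (n = 6) and 40.3 ± 5.31 (n = 4) in the cytosol. At 20 min its nuclear levels were 192, 153, 174 and 130.2 in replicates 1 to 4, and its cytosolic levels were 63.2, 65.5, 76.2 and 62.0. Nucleus and cytosol did not overlap at that time, but over all 16 libraries the ranges overlapped (39.7 to 192 against 34.4 to 76.2). The log2 difference was 0.83 ± 0.15 (SE), or 1.78-fold (adjusted p = 8.1e-07, edgeR), at percentile 65.6 of all genes. On the per-length scale Ythdf3 was higher in the nucleus in 16 of 16 cultures, by 0.013 to 1.60 on the log2 scale. The median of all genes on that scale was 0.47. Counts of cultures higher in the nucleus, here and below, are therefore not particular to the members.

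Ythdc1, the nuclear reader, had nuclear levels of 41.1, 33.7, 42.8 and 35.3 at 20 min and cytosolic levels of 20.5, 16.01, 22.7 and 18.2. Again no nuclear library was as low as a cytosolic one. The log2 difference was 0.60 ± 0.13 (adjusted p = 3.7e-05, edgeR; percentile 59.6), and Ythdc1 was higher in 16 of 16 cultures on the per-length scale. Nuclear levels of Ythdc2 had a lowest, median and highest value of 3.27, 13.8 and 18.2, and cytosolic levels of 4.02, 6.49 and 8.65. These ranges overlap as well, and the log2 difference was 0.67 ± 0.16 (adjusted p = 0.00013, edgeR; percentile 61.7), with 14 of 16 cultures higher. At 20 min the per-length log2 differences of Ythdc2 were 1.13, 1.09, 1.42 and 1.30 in replicates 1 to 4. Without replicate 2 or replicate 4, Ythdf3 was the single member still called higher, at 0.58 and 0.62, and without replicate 5 Ythdf3 (0.64) and Ythdc2 (0.51) were called. Of all genes 37.5%, 33.8% and 37.8% were called higher in these 3 fits. Within replicates 5 and 6 no member was called higher, against 30.6% of all genes.

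Alkbh5 was the member most shifted to the cytosol. Its lowest, median and highest levels in the nucleus were 14.6, 35.0 and 43.4, and those in the cytosol 22.8, 38.9 and 76.2. The log2 difference was -0.68 ± 0.10 (adjusted p = 2.1e-08, edgeR), at percentile 15.7 of all genes. On the per-length scale 11 of 16 cultures were lower in the nucleus, and the other 5 higher. The call rests on replicates 1, 2, 5 and 6. Within replicates 3 and 4 the log2 difference was -0.14 (adjusted p = 0.245, edgeR), and 5 of their 6 cultures were higher in the nucleus, by up to 0.67. Replicates 1 and 2 alone gave -1.27, replicates 5 and 6 alone -0.93, and all but replicate 4 gave -1.03. Fto had a log2 difference of -0.49 ± 0.12 (percentile 22.1), just short of the minimum, and with the culture as a replicate block it was called lower (-0.53, adjusted p = 2.4e-08, edgeR). On the per-length scale Fto was lower in the nucleus in 12 of 16 cultures. The other 4 were the cultures of 40 and 60 min in replicates 3 and 4, with 0.21, 0.17, 0.45 and 0.019. Over all replicates together, both erasers thus had a larger part of their reads in the cytosol than most genes, with replicates 3 and 4 departing for both.

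The writers lay between these. Mettl3 had a log2 difference of 0.37 ± 0.10 (percentile 52.7), close to the median of all genes, and within replicates 5 and 6 its value was -0.015. Mettl14 had -0.18 ± 0.073 (percentile 33.1) and Wtap -0.35 ± 0.096 (percentile 26.8). The catalytic subunit and its partners thus differed in their place among all genes, though the difference between them was not tested. The cytoplasmic readers Ythdf1 and Ythdf2 had -0.36 ± 0.076 (percentile 26.5) and -0.25 ± 0.10 (percentile 30.5). Ythdf3, with 0.83, therefore stood above the median of all genes (0.29), where its paralogs stood below that median. The difference between the paralogs was not tested.

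**Figure D2:**
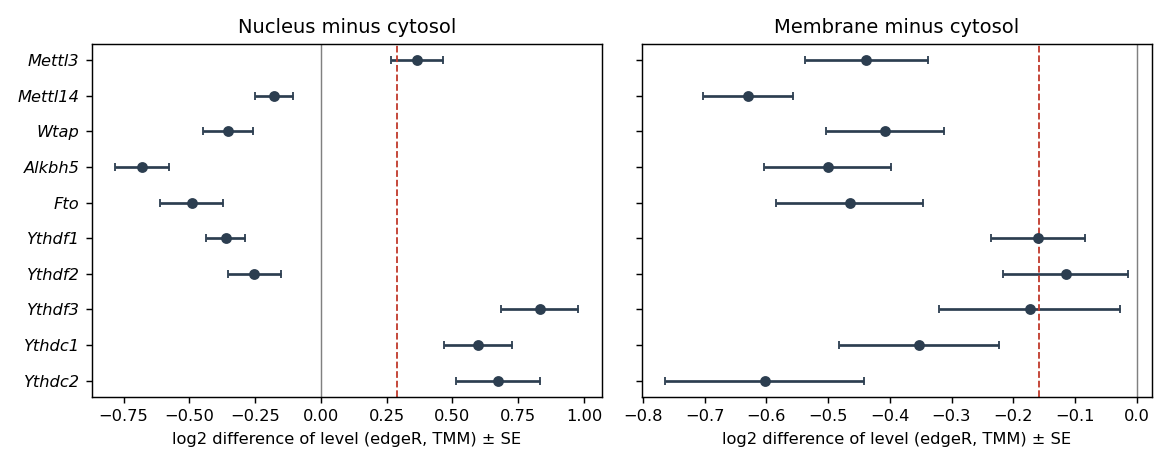
Log2 difference of level ± SE for each gene from edgeR on the TMM scale, nucleus minus cytosol on the left and membrane minus cytosol on the right, with a dashed line at the median of all genes (0.29 and -0.16). Ythdf3, Ythdc2, Ythdc1 and, close to it, Mettl3 lie to the right of the dashed line on the left, and Mettl14 and Ythdc2 lie farthest left on the right.

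In the membrane fraction 0 members were called higher than in the cytosol by edgeR (24.1% of all genes), and every log2 difference was below 0, also in DESeq2. Called lower were 3 members (12.9% of all genes). Mettl14 had a log2 difference of -0.63 ± 0.073 (adjusted p = 1.5e-11, edgeR; percentile 6.17), Ythdc2 of -0.60 ± 0.16 (adjusted p = 0.00096; percentile 7.46) and Alkbh5 of -0.50 ± 0.10 (adjusted p = 2.3e-05; percentile 14.2). On the per-length scale every member was lower in the membrane fraction in 16 of 16 cultures. The median of all genes on that scale was -0.59, so that this count is a property of most genes. The 3 cytoplasmic readers were near the median on the TMM scale, with -0.16 ± 0.076 for Ythdf1, -0.12 ± 0.10 for Ythdf2 and -0.17 ± 0.15 for Ythdf3, against -0.16 over all genes. Without replicate 1 Alkbh5 was not called, nor with the culture as a replicate block (-0.48, adjusted p = 4e-06, edgeR), and without replicate 2 or replicate 5 the count of members called lower was 7 and 6, where 24.9% and 26.2% of all genes were called lower. With the fractions scaled to the same median no member was called, while over all genes 86.2% of the calls were higher in place of 65.2%.

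Relative abundance factors put 38.3% of mRNA in the nucleus, 10.3% in the cytosol and 51.4% in the membrane fraction. They come from a regression of whole-cell levels on the levels of the fractions, over 2889 genes above 50 TPM. With these factors, Ythdc2 had the largest nuclear part, 67.1% ± 9.66 (SD, n = 16 cultures). Ythdf3 had 64.2% ± 9.94, Ythdc1 62.3% ± 6.83 and Mettl3 59.9% ± 8.26. Mettl14 had 52.8% ± 5.77 and Wtap 47.1% ± 7.13. The erasers Fto and Alkbh5 had 45.3% ± 4.69 and 42.8% ± 6.21, and the readers Ythdf2 and Ythdf1 44.4% ± 5.23 and 43.7% ± 3.97. The median over 14494 genes was 47.8%, and 5 of the 10 members were above it. Alkbh5 had the largest cytosolic part, 15.9% ± 4.38 (percentile 89.3). The factor of the cytosol fell to 5.77% without replicate 3, which moved the cytosolic part of every member, to 9.88% for Alkbh5.

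At 20 min, the one time that replicates 1 to 4 share, the nucleus minus cytosol difference was compared between replicate pairs. It was lower in replicates 3 and 4 for 1 member, Ythdf2, and higher for none (11.6% of all genes were called lower and 12.5% higher). Ythdf2 had nuclear levels of 69.4, 60.7, 75.3 and 76.1 in replicates 1 to 4, and cytosolic levels of 61.8, 65.0, 102 and 87.6. The nuclear values are alike and the cytosolic ones of replicates 3 and 4 are higher. The difference of differences was -0.81 ± 0.25 (adjusted p = 0.0234, edgeR). Leaving out any of the 4 replicates, which leaves 1 culture of its pair, ended the call. Ythdf3 had -0.73 ± 0.29 (adjusted p = 0.0669, edgeR), and with the culture as a replicate block it was called as well (adjusted p = 0.0251).

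Whole-cell levels of the members did not differ detectably between labeling times. In the 5 contrasts between times of the same replicates, 0 of 10 members were called, and none had an unadjusted p under 0.05 in edgeR or DESeq2. With the culture as a replicate block 1 member had such a p for 120 against 20 min, and without replicate 6 also 1 for 120 against 60 min. The latter contrast rests on replicates 5 and 6, of which the whole-cell libraries of replicate 6 go against their labels. It also uses the 60 min whole-cell library of replicate 5, which held the lowest level of every member. All 10 members lay above the median of all genes in that contrast. Of all genes, 0.113% were called in either direction for 120 against 20 min, and 0% in each of the other contrasts. For 120 against 20 min, which uses libraries set aside elsewhere, the log2 differences ran from -0.30 ± 0.16 for Mettl14 to 0.22 ± 0.18 for Fto. For 60 against 20 min they ran from -0.31 ± 0.23 for Ythdf3 to 0.13 ± 0.18 for Fto. With 2 libraries per group, 95% intervals such as -0.77 to 0.14 for Ythdf3 leave room for changes of that size.

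The share of new RNA was computed as T2C counts over T counts, divided by the conversion rate of the library, and can come out above 1. All 10 members passed the minimum of 400 T counts in every library used, with 3354 T or more over exons. At 20 min all 10 members had a higher share in the nucleus than in the cytosol in each of 4 cultures, and all 10 were called higher by limma on log2(share + 0.01), against 72.2% of all genes (0.406% were called lower). The differences ran from 0.79 ± 0.17 for Fto to 2.10 ± 0.21 for Ythdc1 (adjusted p = 3.4e-10). The median of all genes was 1.16, and 6 of the 10 members lay above it. A fold on this scale understates the change of low shares.

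Ythdc1 had nuclear shares of 0.101, 0.143, 0.190 and 0.1499 in replicates 1 to 4 at 20 min, against cytosolic shares of 0.0243, 0.0243, 0.0312 and 0.0231. The fractions did not overlap, and the difference stands at percentile 94.3 of all genes. Wtap had 0.173, 0.202, 0.291 and 0.267 in the nucleus and 0.0506, 0.0460, 0.0371 and 0.0632 in the cytosol, with a difference of 2.03 ± 0.17 (adjusted p = 6.7e-12, limma; percentile 92.8). Mettl14 and Ythdc2 followed with 1.91 ± 0.26 (percentile 89.7) and 1.91 ± 0.27 (percentile 89.4). For Mettl3, the third writer, the nuclear shares were 0.0341 and 0.0308 in replicates 1 and 2 and 0.142 and 0.109 in replicates 3 and 4. Its cytosolic shares were 0.0246, 0.0202, 0.0284 and 0.0271. The nuclear share thus differed more between replicate pairs than the fractions did in replicates 1 and 2, and within these replicates 7 of 10 members were called, against 36.5% of all genes. On untransformed shares 5 of 10 were called, against 22.0% of all genes.

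At 60 min, 7 of the 10 members had a higher share in the nucleus, against 46.4% of all genes (2.89% were called lower). They were Mettl3 (1.05 ± 0.27, adjusted p = 0.00132, limma), Mettl14 (0.98 ± 0.26), Wtap (0.92 ± 0.17), Ythdc1 (0.70 ± 0.21), Ythdc2 (0.68 ± 0.27), Fto (0.56 ± 0.17) and Ythdf3 (0.52 ± 0.22). The writers had the largest differences. The median of all genes was 0.69, and 4 of the 10 members lay above it, with a median over the members of 0.62. Ythdf1 (0.31 ± 0.20), Alkbh5 (0.16 ± 0.21) and Ythdf2 (-0.12 ± 0.18) did not pass. Ythdf2 had nuclear shares of 0.318, 0.226, 0.382 and 0.313 in replicates 3 to 6 and cytosolic shares of 0.295, 0.237, 0.438 and 0.399. The fractions overlap, and the 95% interval of the difference ran from -0.47 to 0.22. The calls depend on the replicates, for the members as for all genes. Without replicates 3, 4, 5 and 6 in turn, 3, 6, 5 and 4 members were called higher, against 28.1%, 44.1%, 36.0% and 36.7% of all genes. Replicates 3 and 4 alone gave 7 calls, against 53.6% of all genes. Replicates 5 and 6 alone gave 0 by limma, with 1 unadjusted p under 0.05, against 4.73% of all genes. For Ythdc1 the cytosolic share was 0.139 and 0.129 in replicates 3 and 4 and 0.429 and 0.350 in replicates 5 and 6. The median cytosolic share of all genes moved likewise, from 0.0924 and 0.0929 to 0.206 and 0.181.

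Between membrane fraction and cytosol at 60 min no member was called (0.726% of all genes were higher and 7.65% lower), and 1 member, Ythdc1, had an unadjusted p under 0.05. Ythdc1 had the largest difference, 0.44 ± 0.21 (adjusted p = 0.311, limma), and a higher share in the membrane fraction in 15 of 16 cultures over all times. Mettl3 had the lowest, -0.39 ± 0.27 (adjusted p = 0.642).

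At 120 min, labeled in replicates 5 and 6, the cytosolic share spread widely over the members. Alkbh5 had 0.794 and 0.810, Ythdf2 0.742 and 0.764, and Wtap 0.677 and 0.697. Ythdf1 had 0.600 and 0.638, and Mettl14 0.604 and 0.560. Most of the cytosolic mRNA of these 5 genes was therefore new after 120 min. The values of Ythdf1 and Mettl14 overlap. Ythdf3 had 0.470 and 0.486, Ythdc1 0.471 and 0.475, Mettl3 0.454 and 0.431, and Ythdc2 0.426 and 0.460. Ythdf3 and Ythdc1 overlap, as do Mettl3 and Ythdc2. Fto had 0.240 and 0.217, the single member under the median of all genes, 0.370.

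**Figure D3:**
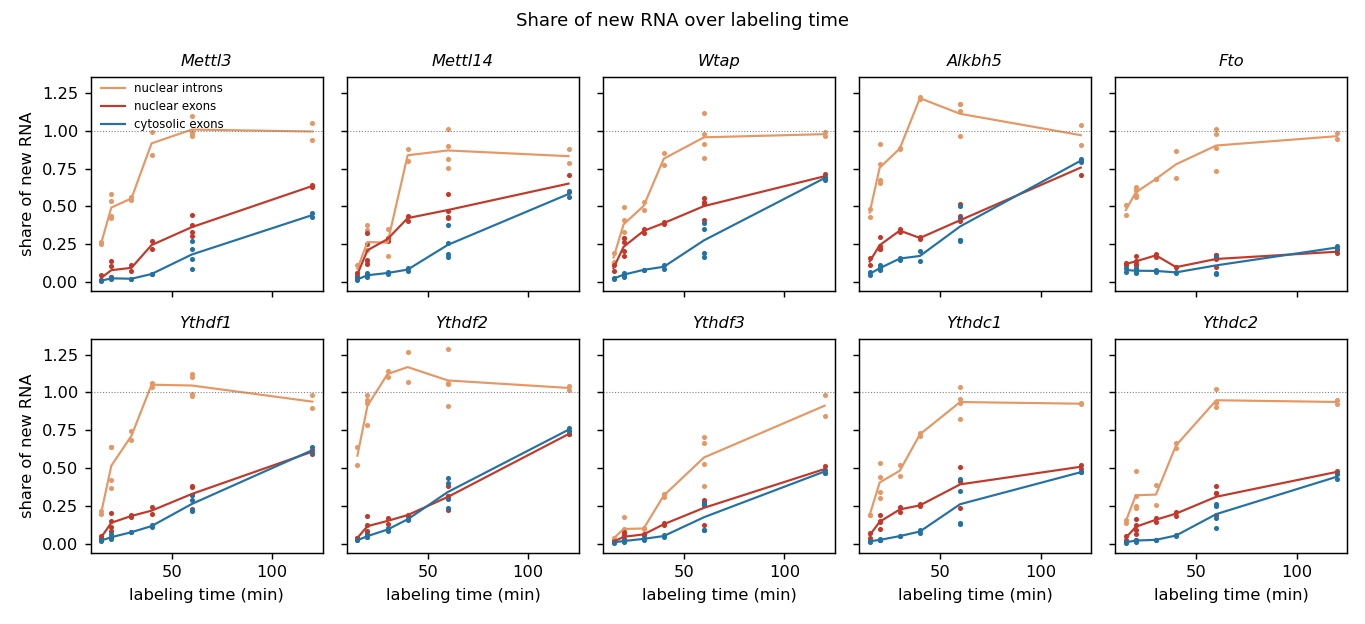
Share of new RNA over labeling time (min) for nuclear introns, nuclear exons and cytosolic exons of each gene, with a point per library, lines through the means and a dotted line at 1. Introns of Ythdf2 average 0.912 at 20 min, introns of Ythdf3 0.098 at that time, and the exons of Fto stay under 0.25 throughout.

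Introns are part of pre-mRNA and are removed as it matures. In nuclear libraries 9 of 10 members had a higher share of new RNA in introns than in exons at 20 min, as had 93.3% of all genes (0.212% were called lower). Intron shares of Ythdf2 were 0.781, 0.932, 0.983 and 0.950 in replicates 1 to 4, against exon shares of 0.0801, 0.0831, 0.180 and 0.122. Nearly all intron reads of Ythdf2 were thus new after 20 min, and the log2 difference was 2.93 ± 0.13 (adjusted p = 2.8e-09, limma; percentile 84.2). Mettl3 had 2.72 ± 0.20, Fto 2.05 ± 0.10 and Ythdf1 1.84 ± 0.12. Alkbh5, Ythdc2 and Ythdc1 had 1.59 ± 0.14, 1.44 ± 0.15 and 1.41 ± 0.15.

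The smallest differences between introns and exons were those of Ythdf3, Wtap and Mettl14. Intron shares of Ythdf3 were 0.0588, 0.0627, 0.175 and 0.0959 at 20 min, at percentile 3.85 of all genes, against exon shares of 0.0204, 0.0298, 0.0750 and 0.0594. The difference was 0.94 ± 0.15 (adjusted p = 8.6e-05, limma). Even at 60 min the introns of Ythdf3 had shares of 0.524, 0.384, 0.708 and 0.664, where the median of all genes was 0.894. They reached 0.980 and 0.844 at 120 min. Wtap had a difference of 0.69 ± 0.097 (percentile 6.86). Mettl14 had 0.31 ± 0.14 (adjusted p = 0.0582; percentile 3.06) and was not called. Its intron shares were 0.130, 0.211, 0.376 and 0.342 and its exon shares 0.120, 0.148, 0.324 and 0.249. The introns of Mettl14 rest on few reads, with 941 T in the lowest nuclear library.

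The amount of intron sequence differed as well. Per 100 T counted in exons, nuclear libraries held 96.5 ± 35.9 T in introns for Mettl3 (SD, n = 16), 92.7 ± 41.4 for Ythdc1, 90.2 ± 36.5 for Wtap and 84.7 ± 41.5 for Fto. The median of 10770 genes was 39.6. Ythdc2 stood at 50.8 ± 19.8 and Ythdf3 at 35.2 ± 17.97. Ythdf2, Ythdf1 and Mettl14 had 28.2 ± 15.5, 26.9 ± 8.20 and 18.6 ± 9.14, and Alkbh5 had 9.97 ± 3.99. In the cytosol, Ythdc1 kept 30.5 ± 13.5 (percentile 86.7), Wtap 20.9 ± 13.4 and Ythdf3 18.5 ± 12.1, against a median of 9.24. Ratios varied widely between libraries, for Ythdc1 in the nucleus from 26.4 to 156. Introns longer than exons give more T, so that these ratios are read against other genes by rank and not as a part of unspliced molecules.

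A labeling half-time summarises each curve: the time at which a rise of 1 - exp(-k(t - 5 min)), fitted to all shares of a fraction, reaches 0.5 after the delay of 5 min. It falls with faster turnover and with faster entry into the fraction. In the cytosol, Alkbh5 had 76.5 min (69.9 to 87.2 in fits that left out a replicate each) and Ythdf2 86.6 min (80.6 to 98.1). Wtap followed with 105 min, Ythdf1 with 114 min, Mettl14 with 126 min and Ythdc1 with 142 min. Ythdf3, Ythdc2 and Mettl3 had 171, 173 and 177 min. Fto had 295 min (280.2 to 313). The median of 11575 genes was 214 min, and 9 of 10 members were below it. Fits to single replicate pairs put 7 (replicates 1 and 2), 8 (3 and 4) and 9 members (5 and 6) below their own median. In the fits to all replicates, the same 9 members were below the median in the nucleus (140.4 min) and in the membrane fraction (261 min). Ythdf3 was close to it in the nucleus, with 138 min, and rose above it without replicate 5 or replicate 6. In whole cells the order was alike, from 83.3 min for Alkbh5 to 269 min for Fto, and without replicate 6 from 86.6 to 251 min.

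Within the writers the nuclear half-times were short and close for 2 of 3, with 52.8 min for Wtap and 58.2 min for Mettl14, and 88.3 min for Mettl3. The cytosolic value of Mettl3 was 177 min, so that its nuclear and cytosolic curves lay far apart. For Ythdf2 the nuclear and the cytosolic half-time were both 86.6 min. Absolute values depend on the replicate pair. The cytosolic half-time of Alkbh5 was 122 min in replicates 3 and 4 and 55.2 min in replicates 5 and 6, and that of Mettl3 was 334 and 136 min. The median of all genes moved from 401 to 173 min. The rank of Alkbh5 was at percentile 6.93, 13.6 and 13.3 in the 3 replicate pairs, and that of Ythdf2 at 17.9, 15.2 and 16.3. Other members moved more. Mettl3 stood at percentile 60.5, 43.4 and 41.3, Ythdf3 at 55.1, 51.9 and 37.7, Ythdc2 at 59.9, 39.6 and 40.6, and Fto at 13.5, 55.2 and 68.9. Replicates 1 and 2 were labeled for at most 30 min.

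**Figure D4:**
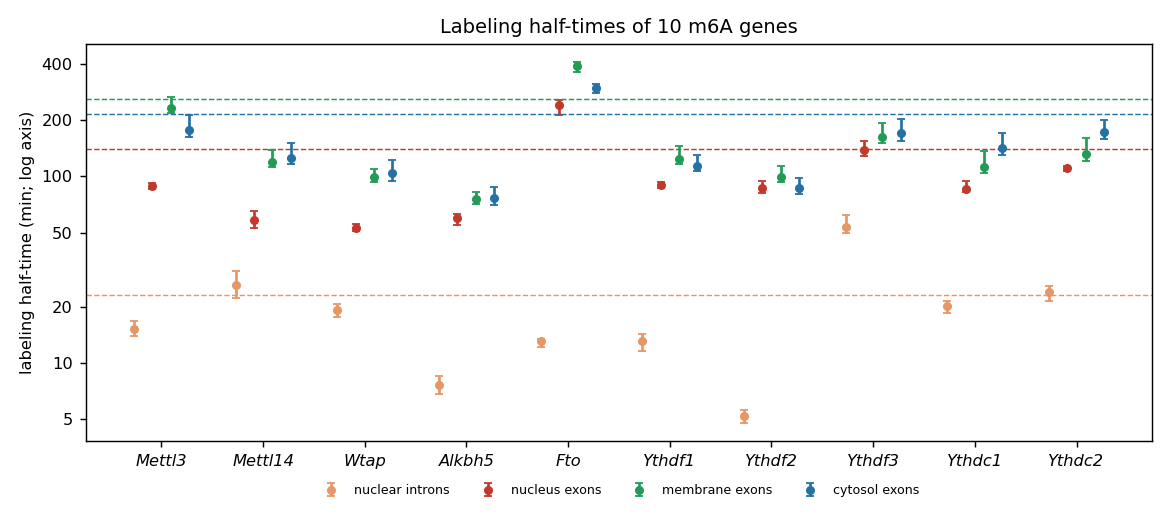
Labeling half-time (min; log axis) of nuclear introns and of exons in the nucleus, membrane fraction and cytosol, with bars from the lowest to the highest value over fits that leave out a replicate each and dashed lines at the medians of all genes. Fto exons lie above the medians at 240 to 391 min, and Ythdf3 introns lie at 53.5 min where the median is 23.2 min.

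Nuclear introns had half-times of 5.22 min for Ythdf2 and 7.66 min for Alkbh5, at percentiles 1.06 and 3.24 of 9837 genes. Fto, Ythdf1 and Mettl3 had 13.1, 13.2 and 15.3 min, and Wtap and Ythdc1 19.3 and 20.2 min. These 7 were below the median of 23.2 min. Ythdc2 had 24.1 min, Mettl14 26.3 min and Ythdf3 53.5 min (49.8 to 62.1; percentile 93.5). Ythdf2 and Alkbh5, the members with the shortest cytosolic half-times, were thus also those with the shortest intron half-times. Fto combined a short half-time of introns with long half-times of exons. Its exons lie up to 355 kb from the 3′ end, and the fit has no term for that distance. The long exon values of Fto are therefore not read as turnover, and the part of distance in them was not tested.

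Labeling along the gene was compared between the last exon and the exons upstream of it. The libraries hold poly(A) RNA, and so transcripts whose 3′ end has been made. Per the study, those begun before labeling and ended after its start carry label only in the part made last. Labeled T therefore first collect near the 3′ end. At 20 min all 10 members had a higher share in the last exon than upstream in each of 4 nuclear libraries. The same count over all genes was not made here. The study describes higher labeling near the 3′ end across genes at short times, so that this count is not particular to the members. Mettl14 had 0.184 (0.118 to 0.255 over the 4 libraries) in the last exon and 0.00764 (0 to 0.0306) in the 6 exons upstream, which lie 7.85 kb to 17.5 kb from the 3′ end. Wtap had 0.306 and 0.145, Alkbh5 0.260 and 0.102, and Ythdc1 0.211 and 0.0654. At 120 min Wtap had 0.706 and 0.678, so that the gap had closed, and Mettl14 still had 0.643 and 0.454. The last exon of Mettl3, which had 0.121 and 0.0742 at 20 min, lies in the overlap with Tox4.

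In Ythdf3 the order of last and upstream exons changed over time. At 15 min its last exon had 0.0135 and the 6 exons upstream 0.0140, with the last exon higher in 1 of 2 nuclear libraries. At 20 min the last exon had 0.0558 (0.0243 to 0.0905) and the upstream exons 0.0269 (0.00929 to 0.0411), and at 30 min they had 0.0711 and 0.0360. At 40 min the values were 0.128 and 0.134, with the last exon higher in 1 of 2 libraries. At 60 min the last exon had 0.213 (0.103 to 0.273) and the upstream exons 0.311 (0.175 to 0.415), and the last exon was the lower one in 4 of 4 libraries. At 120 min the values were 0.446 and 0.633, again with the last exon lower in 2 of 2 libraries. In the cytosol the last exon of Ythdf3 was also lower in 4 of 4 libraries of 60 min, with 0.144 against 0.235, and at 15 min in 2 of 2, with 0.00824 against 0.0131. Ythdc2 and Ythdf2 had a lower share in the last exon in 2 of 2 nuclear libraries of 120 min, with 0.420 against 0.539 and 0.697 against 0.762. The change of sign in Ythdf3 was not tested.

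In Fto, the last exon lies 146 kb downstream of the next one, and the 8 upstream exons lie 146 kb to 355 kb from the 3′ end. In the nucleus the last exon had a share of 0.129 (0.123 to 0.135) at 15 min while the upstream exons were at 0. The upstream exons had 0.00816 at 20 min, 0.0256 (0.0235 to 0.0277) at 30 min, 0.00457 at 40 min and 0.0149 (0.00634 to 0.0326) at 60 min, where the last exon had 0.143. At 120 min they had 0.0909 (0.0796 to 0.102) and the last exon 0.189. The upstream shares up to 60 min were low with no steady order, and both libraries of 120 min lay above them. In the cytosol the last exon had shares of 0.109 at 15 min and 0.0979 at 20 min. The course was flat up to 40 min (0.0895), after which the share was 0.143 at 60 min and 0.282 at 120 min. The raw ratio of T2C to T there was 0.241% at 15 min and 0.934% at 120 min, and the conversion rate was 2.07% to 2.42% and 3.26% to 3.36% in the same libraries. At 20 min the raw ratio was 0.250%, and in the membrane fraction it was 0.232% at 15 min and 0.244% at 20 min. The last exons of the other members had raw ratios of 0% (Mettl3) to 0.134% (Alkbh5) in the cytosol at 15 min. Whether all conversions in the last exon of Fto came from labeling was not tested. The last exon held 72.4% of the exon T of Fto in the cytosol at 15 min, so that the early share of the whole gene, 0.0799, comes from it. The half-time of Fto thus averages over exons that differ in this way.

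**Figure D5:**
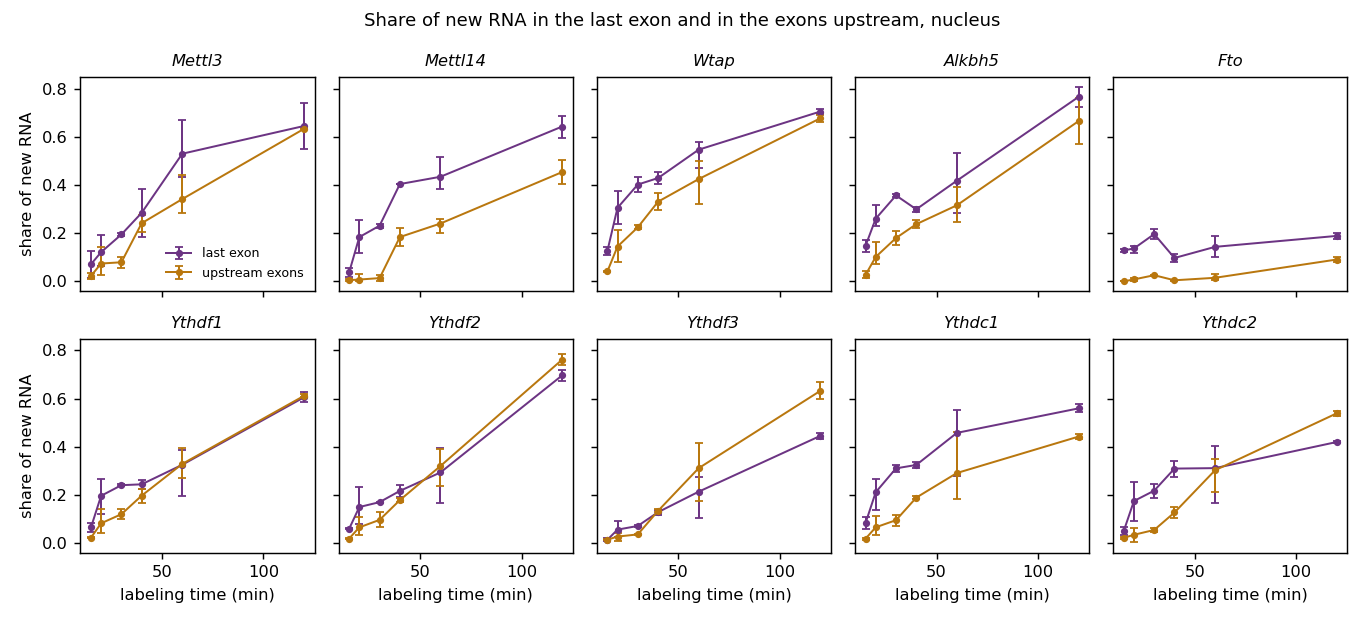
Share of new RNA in the last exon and in the exons upstream of it against labeling time (min) in nuclear libraries, with bars from the lowest to the highest library. The last exon leads at 20 min in all 10 genes, is the lower one in every Ythdf3 library of 60 and 120 min, and stays far ahead in Fto, at 0.143 against 0.0149 at 60 min.

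The likeness of labeling was measured as the root mean square difference of log2(share + 0.01) over 32 means of fraction, time and replicate pair, among 11574 other genes. The nearest gene was Necap1 for Wtap (0.16), Tdrp for Ythdf1 (0.16), Crkl for Alkbh5 (0.19), Sgo2a for Ythdf2 (0.21) and Rbm39 for Ythdc1 (0.21). It was Slmap for Ythdf3 (0.24), Exosc1 for Mettl3 (0.26), Cdk13 for Ythdc2 (0.26), Cdk9 for Mettl14 (0.28) and Rpl15-ps2, a pseudogene that may share reads with its parent gene, for Fto (0.33). Medians over all genes were 0.90 to 1.72. Among the members, Ythdf1 and Ythdf2 were each other's nearest, at 0.23, which is rank 18 of all genes from Ythdf1 and rank 4 from Ythdf2. Ythdf3, their paralog, was nearest to Mettl3, at 0.48 and rank 571. Mettl14 and Wtap were each other's nearest member as well (0.38).

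A list of 25 other genes of the m6A pathway, with partners of the writer complex, other methyltransferases, further binding proteins, enzymes of the methyl donor cycle and decay partners, gave the surroundings of these values. For nucleus against cytosol levels, 6 of 25 were higher and 8 lower, with a median of 0.056 where all genes had 0.29. The highest was Zc3h13, a scaffold of the writer complex, with 3.44 ± 0.19, ahead of Prrc2a with 1.16 ± 0.18. The lowest were Rida, an adaptor between Ythdf2 and RNA cleavage, with -1.69 ± 0.11, and Igf2bp2, with -1.16 ± 0.080. All 4 passed the test. The core writers Mettl3, Mettl14 and Wtap were thus far from Zc3h13, which ranks at percentile 98.2. In the membrane fraction none of 25 was higher and 6 were lower, led by Igf2bp2 (-0.77 ± 0.079) and Fmr1 (-0.71 ± 0.14). Rbm15b (0.31 ± 0.087) and Virma (0.17 ± 0.088) had the highest values and were not called.

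Shares of new RNA were higher in the nucleus for 22 of 25 list genes at 20 min and for 17 at 60 min, with 1 lower at 60 min. At 20 min Mat2b (2.33 ± 0.23) and Zcchc4 (2.20 ± 0.22) led, while Zc3h13 (-0.26 ± 0.32) and Rida (0.0017 ± 0.39) were lowest and not called. At 60 min Zcchc4 (1.68 ± 0.22) and Rida (1.58 ± 0.39) led, and Rbm15 had -0.18 ± 0.23. The share of Zc3h13 was lower in the nucleus than in the cytosol by 1.75 ± 0.32 on the log2 scale, and Zc3h13 was the one called lower. No member went below -0.12 there. Between membrane fraction and cytosol at 60 min, 1 of 25 was called higher, Zcchc4 (1.03 ± 0.22). Fmr1 (0.44 ± 0.22), Ahcy (-0.23 ± 0.21) and Prrc2a (-0.28 ± 0.21) were not called. Introns had a higher share than exons in 21 of the 23 list genes with enough T counts, up to 3.67 ± 0.37 for Rida and 3.36 ± 0.15 for Zc3h13. Zcchc4 (0.13 ± 0.15) and Rbm15 (0.26 ± 0.21) were lowest and, like Mettl14, were not called. Between replicate pairs at 20 min, 4 of 25 differed upward, with Zc3h13 (1.75 ± 0.24) and Prrc2a (1.63 ± 0.25) highest, and 7 downward, with Hnrnpc (-1.63 ± 0.27) and Mettl5 (-1.42 ± 0.29) lowest. Whole-cell levels over labeling time gave no call among the 25 genes in edgeR, with differences from -0.53 ± 0.17 (Zcchc4, 120 against 20 min) to 0.61 ± 0.23 (Mettl4, 30 against 15 min).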

How the data were processed

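Libraries of poly(A) RNA (TruSeq Stranded mRNA, paired ends of 75 bases) were aligned by the authors with STAR 2.7.6 to GRCm38, and HTSeq 0.11.1 and RSEM 1.3.3 are listed in the submitters' processing notes. The deposited counts are raw counts of reads per gene. Per exon, gene and intron set, the authors counted T positions in reads and T2C conversions, with variant positions excluded. The deposited conversion rate is a fraction per library, estimated by the authors with a binomial mixture. The deposited ratio of new to total RNA is T2C / T / conversion rate. Recomputed here, it differed by at most 2.4e-13. Reads outside features (4.41% to 35.2% per library) stayed out of library sizes. Intervals of counting error were not used, since reads carry no molecular identifiers.

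Levels were tested with edgeR 4.0.16 (filterByExpr, TMM, quasi-likelihood) and shares with limma 3.58.1 (trend) on log2(share + 0.01) where no library used had under 400 T counts, in R 4.3.3. Both were tested on simulated data. Calls needed a Benjamini-Hochberg adjusted p under 0.05 and an absolute log2 difference over 0.5. DESeq2 1.42.0 was an alternative. The 8 libraries of 120 min in replicates 3 and 4 were left out except in whole-cell contrasts over time. The study left out labelings of over 60 min at 500 µM. The labels give 100 µM for these 8, and the higher dose was inferred from its methods and from the conversion rates. Levels per length used exon unions of GENCODE vM21, which matched 51633 of 51826 genes.

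The members were picked by symbol and by no measured value. Still, they, the list of 25 other genes and the tests were chosen with earlier results of these data known. Members are always named. Of the other list, the 2 largest and 2 smallest differences of a comparison are named, in the whole-cell contrasts the extremes over all contrasts, and for likeness the nearest gene. Fractions of the same time and replicate number come from the same culture. Deviations of such pairs correlated with a median r of 0.29 for levels (-0.45 to 0.68 over 54 pairs) and 0.03 for shares (-0.06 to 0.20).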

Additional observations from a re-analysis of the deposited data

Results flagged for a closer look

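Of 180 groups of 4 libraries examined, 1 held a library far from the others, where chance alone marks about 1 in 20. It is the cytosolic share of new RNA of Ythdc1 at 20 min in replicate 3, at 0.0312, where the other 3 libraries lay between 0.0231 and 0.0243.

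The nucleus minus cytosol level of Ythdf2 at 20 min differed between replicates 3 and 4 and replicates 1 and 2 by -0.81 ± 0.25 on the log2 scale (adjusted p = 0.0234, edgeR). For Alkbh5 the same difference, on the per-length scale, had opposite signs. It was -0.65 and -0.91 in replicates 1 and 2 and 0.21 and 0.19 in replicates 3 and 4, with a mean of 0.203 in the latter. On that scale it was not tested, and the edgeR difference of differences was 0.56 ± 0.31 (adjusted p = 0.196).

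Ythdf3 had a higher share of new RNA in the last exon than upstream in 4 of 4 nuclear libraries of 20 min, and a lower one, 0.213 against 0.311, in 4 of 4 libraries of 60 min. The difference between times was not tested.

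The membrane minus cytosol share of Ythdf2 at 20 min was -0.075 and -0.16 on the log2 scale in replicates 1 and 2 and 0.021 and 0.011 in replicates 3 and 4, with a mean of 0.016. This difference was not tested.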

How the results depend on the processing

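Counts of members called were most sensitive for levels, and the share of all genes called moved with many of them. Called higher in the nucleus were 1 with the fractions scaled to the same median (chosen after seeing the data), 0 with all 72 libraries, 1 within replicates 3 and 4 and 0 within replicates 5 and 6, and 1 to 3 without a replicate each. Of all genes these were 34.8%, 35.4%, 46.4%, 30.6% and 33.8% to 42.9%. Called lower were 2 with DESeq2, 4 with no filter on low counts, 2 with a replicate block (the culture), 5 with the fractions scaled to the same median, 6 with all 72 libraries, 3, 2 and 3 within the replicate pairs, and 1 to 5 without a replicate each. Of all genes these were 25.1%, 14.5%, 21.5%, 31.1%, 31.7%, then 30.5%, 24.5% and 22.9%, and 18.6% to 30.9%. Of all calls, 66.7% were higher in the nucleus, and 52.9% after that scaling, whereas for the membrane fraction 65.2% became 86.2%. Lower in the membrane fraction were 5 members with no filter, 0 after that scaling, 1, 1 and 6 within the replicate pairs, and 2 to 7 without a replicate each. Of all genes 4.19% were lower after that scaling, 10.4%, 10.8% and 27.8% within the pairs, and 11.4% to 26.2% without a replicate each. Lower between replicate pairs at 20 min were 0 with no filter, 2 (Ythdf2 and Ythdf3) with the replicate block and 0 without a replicate each, where all genes gave 4.90%, 14.8% and 0.753% to 9.56%. The nuclear share was higher for 5 members at 20 min on untransformed shares, and at 60 min for 4 with a pseudocount of 0.001, 0 within replicates 5 and 6, and 3 to 6 without a replicate each. Of all genes these were 22.0%, 35.1%, 4.73% and 28.1% to 44.1%. The replicate block also ended the call of Alkbh5 in the membrane fraction and added that of Fto in the nucleus, and changed no other call of a member. The cause of these changes was not tested. The planned background came out as 0, and a background of 0.0116% from deeply covered genes (chosen after seeing the data) changed no count by over 1.5 times.

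Signs turned in 32 single values, none of which was called. For levels in the nucleus it was Mettl3 within replicates 5 and 6 (-0.015). In the membrane fraction it was Ythdf2 after scaling to the same median (0.037), and within replicates 1 and 2 Ythdf2 (0.11) and Ythdf3 (0.055). For shares at 60 min it was in the nucleus Alkbh5 (-0.011) within replicates 5 and 6 and Ythdf2 (0.018) within replicates 3 and 4. In the membrane fraction it was Mettl3 (0.053) within replicates 3 and 4, and Alkbh5 (-0.14) and Ythdf3 (-0.050) within replicates 5 and 6. Whole-cell levels turned with DESeq2 for Alkbh5 (0.0040) and Ythdc1 (0.0096) at 40 against 20 min. Leaving out a replicate turned signs of whole-cell differences over the following ranges. At 30 against 15 min they were -0.34 to 0.053 for Mettl14, -0.098 to 0.15 for Ythdf1, -0.060 to 0.13 for Ythdf2 and -0.0078 to 0.51 for Ythdf3. At 40 against 20 min they were -0.0089 to 0.15 for Ythdf2, -0.022 to 0.00042 for Ythdc1 and -0.44 to 0.13 for Ythdc2. At 60 against 20 min they were -0.0060 to 0.040 for Ythdf1, -0.13 to 0.020 for Ythdf2 and -0.42 to 0.025 for Ythdc1. At 120 against 20 min they were -0.25 to 0.019 for Wtap, -0.0041 to 0.16 for Ythdf2, -0.21 to 0.041 for Ythdf3, -0.20 to 0.25 for Ythdc1 and -0.0016 to 0.050 for Ythdc2. At 120 against 60 min they were -0.016 to 0.38 for Alkbh5, -0.0085 to 0.48 for Ythdf1, -0.043 to 0.069 for Ythdf2 and -0.088 to 0.15 for Ythdc1. For the membrane share at 60 min the ranges were -0.19 to 0.0088 for Ythdf1 and -0.086 to 0.61 for Ythdc2.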
